A study of Homo sapiens with 9 samples.

Results

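The genes described here are 57 genes of the cell division cycle: 28 that copy DNA, 26 that carry out mitosis and 3 regulators of the G1 phase (CCND3, CDKN1A and CDKN1B). They were listed by function and measured in Ramos cells, an established line of Burkitt's lymphoma, a fast-dividing B cell cancer. The cells had been kept for 48 h with HDL NP at 40 nM, with human HDL at 40 nM or with PBS. HDL NP is a synthetic high-density lipoprotein-like particle that targets the lipoprotein receptor SCARB1, human HDL is the natural, cholesterol-rich particle, and PBS is the saline control. Each condition had 3 biological replicates, so that 9 Illumina HT-12 arrays were read. All 3 conditions came from a single cell line in culture. All 57 genes had probes on the array, 85 in total, and 55 of the 57 were measured, among 10307 genes measured in all. Measured means that a probe stood above background (detection p under 0.05) on at least 3 of the 9 arrays. All 55 were above background on all 9 arrays. GINS1, a subunit of the replicative helicase, and CCNE2, the second cyclin E gene, each had a single probe that was above background on 0 arrays, and they have no measured level.

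Before S phase the origin recognition complex, CDC6 and CDT1 load rings of MCM2 to MCM7 onto DNA. In S phase the rings become active helicases and polymerases copy the strands. The genes for this work are known targets of E2F transcription factors, which pocket proteins of the retinoblastoma family hold in check until cyclin-dependent kinases release them. Genes for mitosis are transcribed later, in G2, through promoter elements called CHR and CCAAT, which MuvB-based complexes such as DREAM and the factor NF-Y bind. CDKN1A (p21) inhibits cyclin-dependent kinases and is known to hold cells in G1 or G2. In RNA from a whole culture, fewer cells in a phase and less RNA per cell cannot be told apart.

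Promoters of the members are shown because the replication and mitosis genes differ in these elements. The set of RefSeq (GRCh38.p14) promoters used here held 48 of the 57 genes, from 250 bases before to 50 bases after the transcription start. Promoters of the rest, such as CDK2 and AURKA, were not in the set at hand. The first listed start was taken where a gene had several (11 members). Both strands were searched. An E2F word (TTTGGCGC, TTTCCCGC, TTTCGCGC or TTTGCCGC) was present in 15 of 24 replication promoters (62.5%) and 2 of 21 mitosis promoters (9.52%), against 3.33% of all 27305 promoters. A CHR word (TTTGAA or TTTAAA) was present in 16 of 21 mitosis promoters (76.2%) and 4 of 24 replication promoters (16.7%), against 24.3% of all. CCAAT was present in 17 of 21 mitosis promoters (81%) and 14 of 24 replication promoters (58.3%), against 35.7% of all, and CHR and CCAAT stood together in 14 of 21 mitosis promoters (66.7%) and 2 of 24 replication promoters (8.33%), against 9.49% of all. TTTAAA reads the same on both strands, and E2F words on opposite strands may overlap. These matches are descriptions of letters, not of bound sites.

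The stretches below are written 5′ to 3′ along the gene's own strand, with matches of any of these words in capitals. E2F2, RRM2, CENPE and KIF23 are members whose HDL NP arrays all lay above the PBS arrays, and MCM6 is an MCM gene with E2F words. CDKN1A is the only member that passed the test. The stretches are chr1:23531184-23531353 for E2F2 (minus strand), chr2:135876444-135876613 for MCM6 (minus), chr2:10122599-10122768 for RRM2 (plus), chr4:103198294-103198463 for CENPE (minus), chr15:69414229-69414398 for KIF23 (plus) and chr6:36678464-36678763 for CDKN1A (plus, all 300 bases).
E2F2: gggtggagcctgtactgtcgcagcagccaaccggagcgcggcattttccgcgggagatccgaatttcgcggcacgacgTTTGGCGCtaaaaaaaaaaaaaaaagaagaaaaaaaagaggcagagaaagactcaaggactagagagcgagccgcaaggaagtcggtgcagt
MCM6: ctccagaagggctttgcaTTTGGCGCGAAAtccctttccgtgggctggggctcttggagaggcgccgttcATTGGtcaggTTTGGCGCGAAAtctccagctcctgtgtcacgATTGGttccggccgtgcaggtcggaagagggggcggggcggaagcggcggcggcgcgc
RRM2: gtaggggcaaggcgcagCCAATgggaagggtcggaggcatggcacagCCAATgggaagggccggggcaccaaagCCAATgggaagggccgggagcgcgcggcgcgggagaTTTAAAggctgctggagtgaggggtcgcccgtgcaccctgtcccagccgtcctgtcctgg
CENPE: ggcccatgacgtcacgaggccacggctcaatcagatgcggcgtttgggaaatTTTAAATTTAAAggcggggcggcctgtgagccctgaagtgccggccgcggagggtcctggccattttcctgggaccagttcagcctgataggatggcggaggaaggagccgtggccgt
KIF23: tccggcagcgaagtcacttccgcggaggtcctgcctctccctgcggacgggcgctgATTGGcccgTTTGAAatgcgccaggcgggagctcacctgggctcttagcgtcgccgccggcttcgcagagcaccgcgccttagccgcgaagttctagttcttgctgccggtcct
CDKN1A: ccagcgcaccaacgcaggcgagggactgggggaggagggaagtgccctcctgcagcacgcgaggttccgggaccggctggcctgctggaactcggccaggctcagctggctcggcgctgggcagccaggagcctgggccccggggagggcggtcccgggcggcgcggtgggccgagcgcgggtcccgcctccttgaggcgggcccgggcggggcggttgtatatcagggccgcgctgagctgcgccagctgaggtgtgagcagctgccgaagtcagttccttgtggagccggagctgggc
E2F2 has a single E2F word (TTTGGCGC). In MCM6 each of 2 longer capital runs holds 2 overlapping E2F words, on opposite strands, and the 2 short runs are CCAAT on the minus strand (ATTGG). RRM2 carries CCAAT 3 times and then TTTAAA, so that this replication gene holds CHR and CCAAT together as 14 of the mitosis promoters do. CENPE has TTTAAA 2 times in a row and KIF23 has CCAAT (as ATTGG) followed by TTTGAA. None of the searched words is in this window of CDKN1A.

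**Figure D1:**
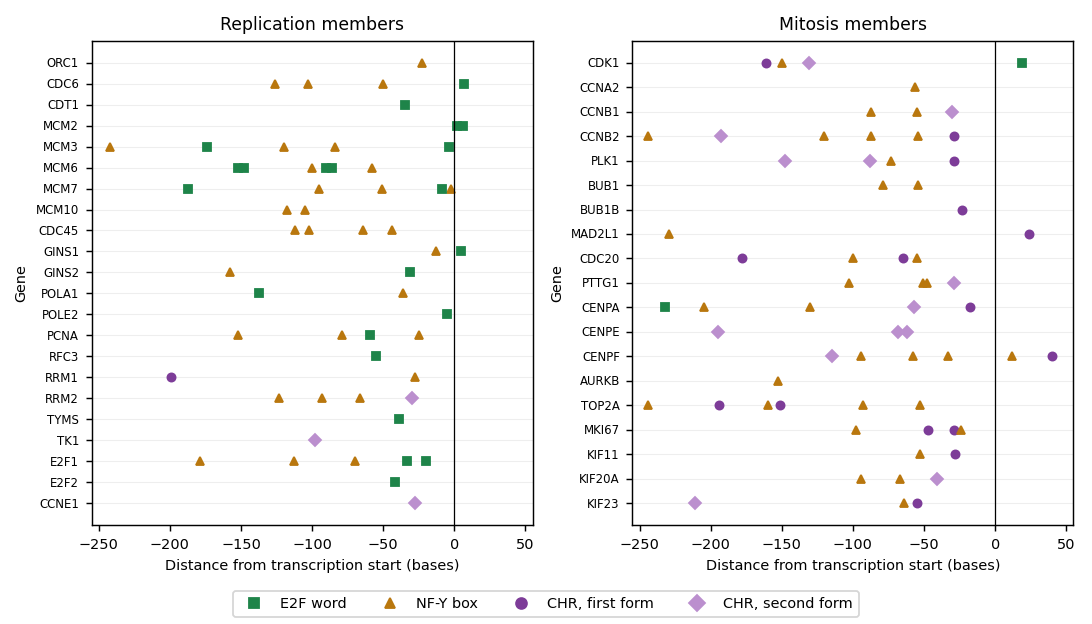
Positions of the searched words in the RefSeq promoters of replication members (left) and mitosis members (right) that hold at least 1 of them. The horizontal axis is the distance in bases from the transcription start (line at 0), each row is a gene, squares are E2F words, triangles CCAAT, and circles and diamonds the CHR words TTTGAA and TTTAAA. E2F words lie in the replication panel with 2 exceptions, CDK1 and CENPA, and CHR words mostly in the mitosis panel.

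Levels are log2 intensities after background correction and quantile normalization. One array stood apart from the rest. On HDL NP replicate 1, 536 genes lay at least 1 log2 unit from the PBS mean, against 0 to 6 genes on each of the other 8 arrays. There the median of the 21 measured respiratory chain subunits lay −1.49 from the PBS mean, against −0.10 to 0.04 on the other arrays, and the median of 9 housekeeping genes lay 0.48 above it. What set this array apart was not tested, and the medians of gene groups below are also given without it. The cells carried B cell markers, with 6 of 8 measured (MS4A1, CD79A, CD79B, CD22, BLK and POU2AF1). Of 8 T cell markers CD2 and CD28 were measured, and of 8 myeloid markers CD14 and LYZ, while CD3D, CD3E, CD3G, CSF1R and MPO were not above background. None of these markers passed the test in any comparison.

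HDL NP-treated cells were compared with PBS-treated cells to ask whether the particle changed the division program. Of 55 members, 1 was higher (CDKN1A) and 0 were lower at an adjusted p under 0.05 in limma, against 0.369% of all genes called higher and 0.0388% called lower. At an unadjusted p under 0.05 there were 5 members, all higher (E2F2, CENPE, KIF11, KIF23 and CDKN1A), against 15.4% of all genes in either direction. By a fold over 1.5 with unadjusted p under 0.05, the size rule that the study's methods give, CDKN1A was the 1 member higher and 0 were lower, against 1.43% and 1.1% of all genes. The 3 HDL NP arrays lay entirely above the 3 PBS arrays for 9 members and entirely below for 0, against 11.7% and 8.5% of all genes. The 9 were RRM2, E2F2, CDC25C, CENPE, KIF20A, KIF23, TPX2, CCND3 and CDKN1A.

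CDKN1A was the only member past the adjusted threshold. Its level was 11.53, 11.18 and 11.08 in HDL NP cells, against 10.58, 10.38 and 10.61 in PBS cells. In human HDL cells it was 10.53, 10.58 and 10.49. All HDL NP arrays were higher than all 6 others, and human HDL and PBS overlapped. The level averaged 11.26 ± 0.23 in HDL NP cells and 10.53 ± 0.12 in PBS cells (SD, n = 3 each). This was 1.67-fold higher (log2 difference 0.74, SE 0.14, 95% interval 0.44 to 1.03, adjusted p = 0.0475 in limma). The exact two-sided permutation test gave p = 0.1, the smallest that 3 against 3 arrays allow. Against human HDL the fold was 1.66 (log2 difference 0.73, adjusted p = 0.0403). Without HDL NP replicate 1 the difference from PBS was 0.60 (adjusted p = 0.044). Against PBS the adjusted p was close to the threshold, and it was above 0.05 under 13 of 20 alternatives. Over all 20 it ran from 0.0051 to 0.64, and the log2 difference from 0.57 to 0.83. Against human HDL the adjusted p was also above 0.05 under 13 of 20, and ran from 0.0029 to 0.90. The log2 difference from human HDL ran more widely, from 0.24 to 0.82. In both comparisons the call was kept without HDL NP replicate 1 or 2 and lost when HDL NP replicate 3, any human HDL array or any PBS array was left out (adjusted p = 0.092 to 0.23 against PBS and 0.07 to 0.18 against human HDL). Its second probe was above background on 0 arrays.

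**Figure D2:**
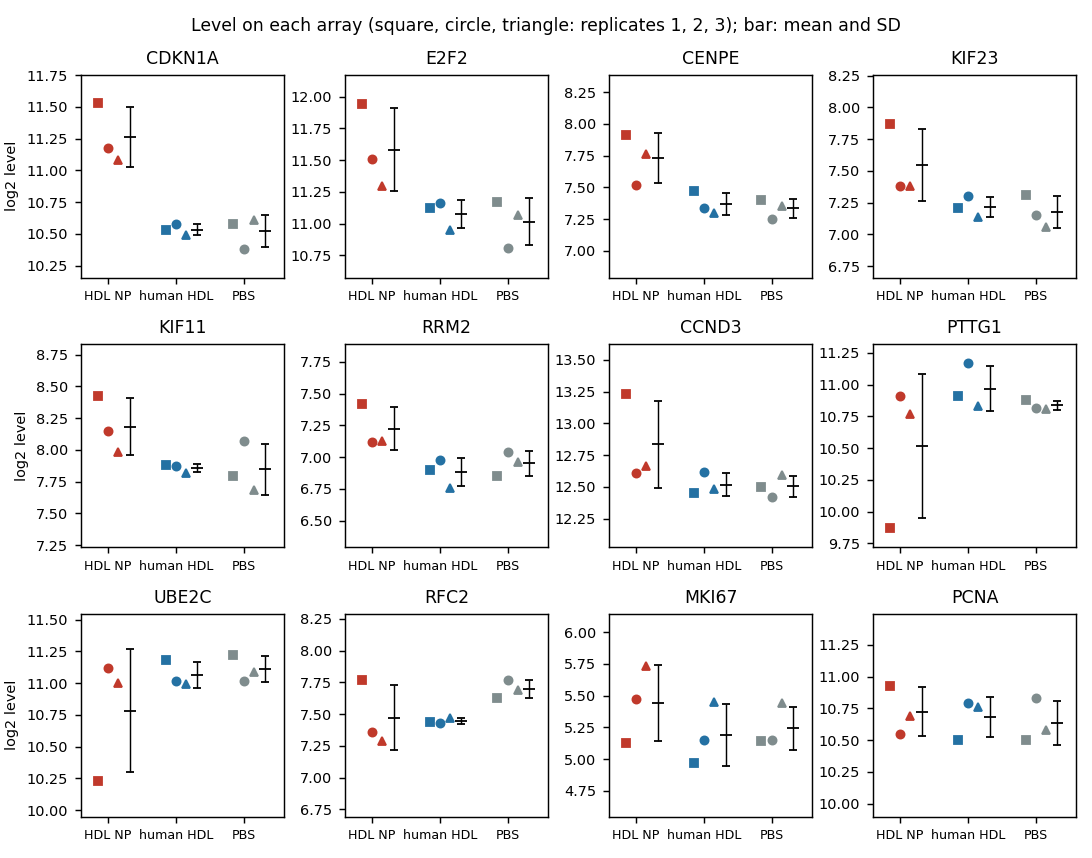
Normalized log2 level of 12 members on each array, in HDL NP, human HDL and PBS cells. Squares, circles and triangles are replicates 1, 2 and 3, and the bar is the mean with its SD (n = 3). The vertical axes differ in origin. CDKN1A is higher on all 3 HDL NP arrays than on the other 6, while PTTG1 and UBE2C are low on HDL NP replicate 1 only.

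The other G1 regulators did not pass the test. CCND3, a D cyclin that activates CDK4 and CDK6, was 13.23, 12.61 and 12.66 in HDL NP cells, against 12.50, 12.42 and 12.59 in PBS cells. The groups did not overlap, but HDL NP replicates 2 and 3 lay just above the highest PBS array (log2 difference 0.33, SE 0.16, adjusted p = 0.343), and without HDL NP replicate 1 the difference was 0.13. CDKN1B (p27), a related kinase inhibitor, was 5.72, 5.67 and 6.03 in HDL NP cells, against 5.79, 5.84 and 6.05 in PBS cells. These groups overlapped (log2 difference −0.09, −0.04 without HDL NP replicate 1 and 0.02 with scaling to equal medians), and the 2 probes of the gene had opposite signs.

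Replication members differed little between HDL NP and PBS cells. Their median log2 difference was 0.09 over 26 genes, against 0.03 over all genes, with 16 above 0 and 10 below. The lowest was RFC2 and the highest E2F2. The 95% interval lay within a 1.5-fold change either way for 24 of the 26, the exceptions including E2F2, and for 71.4% of all genes. Without HDL NP replicate 1 the median was −0.02, with 9 of 26 above 0.

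The 9 genes that license origins (ORC1, CDC6, CDT1 and MCM2 to MCM7) had a median difference of 0.18, with 8 of 9 above 0 and 0 passing the test. On HDL NP replicate 1 all 9 lay above the PBS mean, with a median of 0.46, while the medians on HDL NP replicates 2 and 3 were 0.05 and −0.07. Without HDL NP replicate 1 the median of the 9 differences was −0.01. MCM6 shows the pattern, with 11.43, 10.78 and 10.73 in HDL NP cells against 10.80, 10.86 and 10.75 in PBS cells. Only the first value stood out, and the groups overlapped. CDC6, which helps load the MCM ring, was 5.47, 5.54 and 5.51 in HDL NP cells, against 5.12, 4.94 and 5.57 in PBS cells. Here replicate 1 did not stand out and the third PBS array was the highest of the 6 (log2 difference 0.29, SE 0.15, adjusted p = 0.365). MCM7 had 3 measured probes that differed in sign, and their log2 differences spread over 0.52, the widest gap among the 22 members with several measured probes. The highest, 0.29, came from a dim probe above background on 4 of 9 arrays (mean log2 level 4.62). The brighter probes gave 0.10 and −0.23. The median gap over the 22 members was 0.11, and in 10 of them the probes differed in sign. Among these was POLA1, whose second probe was above background on 3 arrays.

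Of the 9 measured genes that start and run the fork (MCM10, CDC45, GINS2, POLA1, POLE2, PCNA and RFC2 to RFC4), 3 lay above 0 and 6 below, with a median of −0.04, and −0.15 without HDL NP replicate 1. RFC2, a subunit of the loader that places the PCNA clamp on DNA, was 7.77, 7.36 and 7.29 in HDL NP cells, against 7.63, 7.77 and 7.69 in PBS cells. In human HDL cells it was 7.44, 7.43 and 7.47. HDL NP replicates 2 and 3 were the lowest of the 9 arrays, human HDL lay wholly below PBS, and HDL NP replicate 1 matched the highest PBS array. The log2 difference was −0.22 (SE 0.14, adjusted p = 0.441) for HDL NP and −0.25 for human HDL, and without HDL NP replicate 1 it was −0.37 (adjusted p = 0.13). Its second probe gave −0.27 for HDL NP but 0.03 for human HDL. PCNA, the sliding clamp and a usual proliferation marker, was 10.93, 10.55 and 10.69 in HDL NP cells, against 10.50, 10.83 and 10.58 in PBS cells. The groups overlapped (log2 difference 0.09, adjusted p = 0.783), and the sign turned when HDL NP replicate 1 was left out (−0.01), with scaling to equal medians (log2 difference −0.002) and in the second deposited table (−0.14).

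Genes that supply nucleotides gave a median of 0.15 over 4 members, which turned to −0.06, with 1 of 4 above 0, without HDL NP replicate 1. RRM2, the regulated subunit of ribonucleotide reductase, was 7.42, 7.12 and 7.13 in HDL NP cells, against 6.85, 7.04 and 6.96 in PBS cells. All HDL NP arrays were above all PBS arrays, and also above the human HDL arrays (6.90, 6.98 and 6.76). The log2 difference from PBS was 0.27 (SE 0.13, adjusted p = 0.337), and 0.17 without HDL NP replicate 1. TK1, the S-phase thymidine kinase, was 8.80, 9.11 and 8.69 in HDL NP cells, against 9.08, 9.01 and 8.95 in PBS cells, and the groups overlapped.

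Among the drivers of G1 to S passage, E2F2 and E2F1 lay on opposite sides of 0. E2F2, an activator E2F, was 11.94, 11.51 and 11.30 in HDL NP cells, against 11.17, 10.81 and 11.07 in PBS cells. All 3 HDL NP arrays were higher than all 6 others, since human HDL gave 11.12, 11.16 and 10.95. The fold was 1.48 (log2 difference 0.57, SE 0.17, 95% interval 0.21 to 0.93), the second largest difference among the members, but it missed the threshold (adjusted p = 0.155), and was 0.39 without HDL NP replicate 1. E2F1, a related activator, was 5.30, 5.68 and 5.56 in HDL NP cells, against 5.54, 5.80 and 5.76 in PBS cells. These groups overlapped (log2 difference −0.19, adjusted p = 0.569, and −0.08 without HDL NP replicate 1). CCNE1 and CDK2, cyclin E and its kinase, differed by −0.04 and 0.05, and by −0.16 and −0.01 without that array. The median of the 4 measured drivers was 0.01 with it and −0.04 without it.

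**Figure D3:**
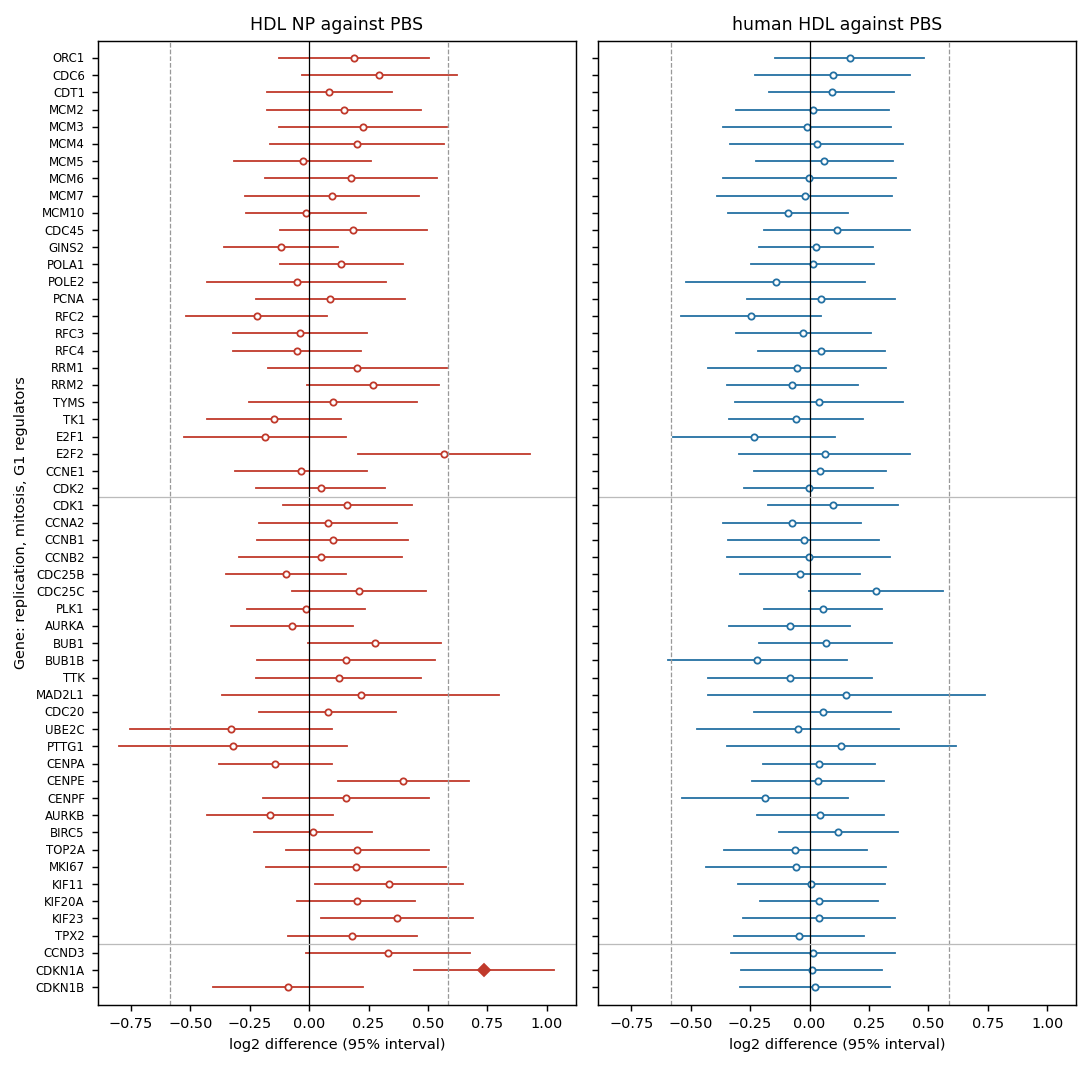
Fitted log2 difference of each measured member in HDL NP cells (left) and human HDL cells (right) against PBS cells, with 95% intervals. Rows run from replication through mitosis to G1 regulators, dashed lines mark a 1.5-fold change, and the filled diamond passed the adjusted threshold. The diamond is CDKN1A in the HDL NP panel, at 0.74, and no point of the human HDL panel is filled.

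Mitosis members gave a median log2 difference of 0.14 over 26 genes, with 19 above 0 and 7 below, and 0 passed the test. The interval lay within a 1.5-fold change for 20 of 26 (76.9%), against 71.4% of all genes. Without HDL NP replicate 1 the median was 0.01 and 14 of 26 lay above 0.

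The 8 genes for entry into mitosis (CDK1, CCNA2, CCNB1, CCNB2, CDC25B, CDC25C, PLK1 and AURKA) had a median of 0.06, from −0.10 for CDC25B to 0.21 for CDC25C. The other measured probes of CDC25C gave −0.28 and 0.22. The median turned to −0.02 without HDL NP replicate 1, with 3 of 8 above 0 and AURKA lowest at −0.16. CCNB1, the cyclin that drives mitotic entry with CDK1, was 7.92, 7.42 and 7.66 in HDL NP cells, against 7.44, 7.72 and 7.54 in PBS cells. The arrays interleaved. PLK1, a kinase of mitotic entry and spindle assembly, differed by −0.01 (0.02 without HDL NP replicate 1), with 7.70, 7.76 and 7.81 in HDL NP cells against 7.67, 7.76 and 7.87 in PBS cells.

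Genes of the spindle checkpoint and anaphase (BUB1, BUB1B, TTK, MAD2L1, CDC20, UBE2C and PTTG1) had differences from −0.33 (UBE2C) to 0.28 (BUB1), and 0 of the 7 passed the test. Their median of 0.12 turned to −0.03 without HDL NP replicate 1. UBE2C, the ubiquitin-conjugating enzyme of the anaphase-promoting complex, was 10.23, 11.12 and 11 in HDL NP cells, against 11.22, 11.02 and 11.09 in PBS cells. PTTG1 (securin), which restrains the separation of sister chromatids, was 9.87, 10.91 and 10.77 in HDL NP cells, against 10.88, 10.82 and 10.81 in PBS cells. In both, HDL NP replicate 1 was low and replicates 2 and 3 lay within 0.12 of the PBS mean. Their fitted differences of −0.33 and −0.32 became −0.05 and 0.004 without it, and their second probes were also lowest on that array. These were the only 2 members at least 0.5 below the PBS mean on that array, while 14 (8 replication genes, 4 mitosis genes, CCND3 and CDKN1A) lay at least 0.5 above. Such shares were not counted over all genes. MAD2L1, a checkpoint protein that inhibits CDC20, was 10.03 on HDL NP replicate 1 and 8.86 and 9.27 on the other HDL NP arrays. It was 9.24, 9.54 and 8.72 in PBS cells, a wide scatter in both groups. The log2 difference was 0.22, and −0.11 without HDL NP replicate 1. Its second measured probe was dimmer (mean log2 level 5.34) and gave 0.64 for HDL NP and 0.60 for human HDL. That probe read 5.44, 5.37 and 5.91 in HDL NP cells, against 4.84, 5.13 and 4.82 in PBS cells, and was not tested.

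Genes of the centromere, the chromosomal passenger complex and chromatin had a median of 0.15 over 7, and 0.08 without HDL NP replicate 1. CENPE, a kinesin that carries chromosomes to the spindle equator, was 7.91, 7.52 and 7.76 in HDL NP cells, against 7.40, 7.25 and 7.35 in PBS cells. The human HDL arrays gave 7.47, 7.34 and 7.30, so that all HDL NP arrays were higher than the other 6. The log2 difference was 0.40 (SE 0.13, adjusted p = 0.201), the largest among the mitosis genes, and 0.31 without HDL NP replicate 1, and its second probe gave 0.37. AURKB, the kinase of the passenger complex, was 8.62, 9.0 and 8.79 in HDL NP cells, against 9.04, 8.92 and 8.96 in PBS cells. The groups overlapped. The proliferation markers TOP2A, the topoisomerase that untangles chromosomes, and MKI67, which coats them, had log2 differences of 0.20 each. They parted without HDL NP replicate 1, at 0.08 for TOP2A and 0.35 for MKI67. MKI67 was 5.13, 5.47 and 5.73 in HDL NP cells, against 5.14, 5.15 and 5.44 in PBS cells. TOP2A was 10.68, 10.17 and 10.47 in HDL NP cells, against 10.31, 10.21 and 10.19 in PBS cells. Both overlapped, and unlike TOP2A, MKI67 was not highest on HDL NP replicate 1.

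The 4 genes of spindle motors and assembly (KIF11, KIF20A, KIF23 and TPX2) lay above the PBS mean on all 3 HDL NP arrays. Their medians on replicates 1, 2 and 3 were 0.49, 0.20 and 0.16, and 0 of the 4 passed the test. KIF23, a motor of the midzone needed for cytokinesis, was 7.87, 7.38 and 7.38 in HDL NP cells, against 7.31, 7.15 and 7.06 in PBS cells. The groups did not overlap (log2 difference 0.37, SE 0.15, adjusted p = 0.278, and 0.21 without HDL NP replicate 1). KIF11, the motor that pushes spindle poles apart, was 8.42, 8.15 and 7.98 in HDL NP cells, against 7.79, 8.07 and 7.68 in PBS cells. One PBS array reached above the lowest HDL NP array (log2 difference 0.34, SE 0.14, adjusted p = 0.301, and 0.22 without HDL NP replicate 1). KIF20A was 9.0, 8.97 and 8.96 in HDL NP cells, against 8.86, 8.62 and 8.86 in PBS cells, with little scatter among the HDL NP arrays. The group median without HDL NP replicate 1 was 0.20, against 0.00 for all genes and 0.03 for 62 other mitosis genes. Kinesins among those other genes ran from −0.24 (KIF18A) to 0.31 (KIF15) without that array.

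**Figure D4:**
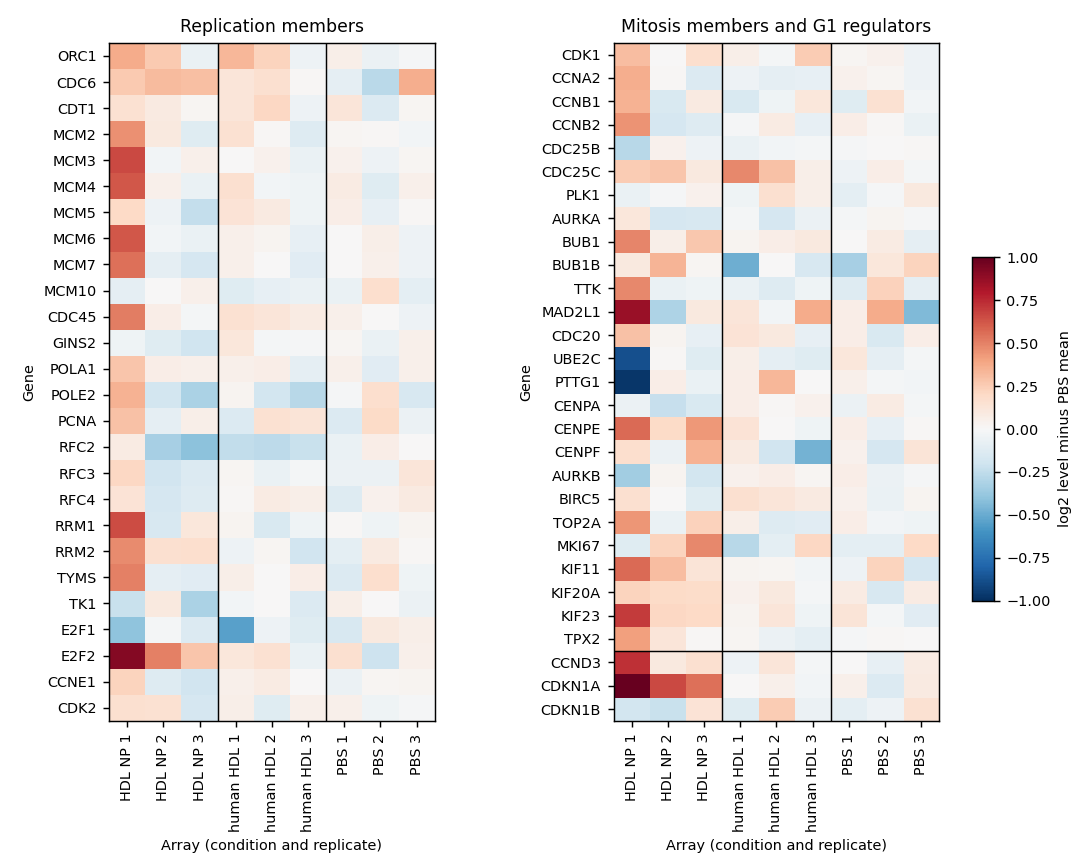
Level of each measured member (rows) on each array (columns) minus its PBS mean, in log2 units, with red above and blue below and the colour scale ending at −1 and 1. Replication members are on the left, mitosis members and, under the line, G1 regulators on the right. HDL NP replicate 1 is red for most genes, with 43 of 55 (78.2%) above the PBS mean, against 29 (52.7%) and 27 (49.1%) on HDL NP replicates 2 and 3. Over all genes the shares on these arrays were 61.1%, 48.1% and 49.4%.

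Human HDL cells showed no member past the test. In limma 0 of 55 passed in either direction, against 0% of all genes, and 0 had an unadjusted p under 0.05, against 2.31% of all genes. The methods' t-test also gave 0 after adjustment. The median log2 difference was 0.01 for replication members and 0.02 for mitosis members, against 0.00 for all genes. The groups did not overlap for 5 members, CDC45 and BIRC5 higher and RFC2, CDC25B and AURKA lower, against 9.18% of all genes in either direction. By the probe that stood for each gene, CDC25C had the largest difference (0.28). It was 6.41, 6.21 and 5.98 in human HDL cells against 5.88, 5.99 and 5.90 in PBS cells. The third human HDL array lay among the PBS arrays, and the other measured probes of this gene gave −0.25 and 0.06. The 95% interval lay within a 1.5-fold change for 52 of the 55 members (94.5%), against 88.7% of all genes.

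Setting HDL NP against human HDL asks what the synthetic particle did beyond the natural one at the same dose. This comparison shares its HDL NP arrays, replicate 1 included, with the one against PBS. CDKN1A was the 1 member called higher and 0 were called lower, against 0.553% and 0.0388% of all genes. The groups did not overlap for 9 members higher in HDL NP cells (CDC6, RRM2, E2F2, BUB1B, CENPE, KIF11, KIF20A, KIF23 and CDKN1A), against 12.5% of all genes. They did not overlap for 2 members lower in HDL NP cells (GINS2 and CENPA), against 10.1%. CENPA, the histone that marks centromeres, was 8.55, 8.38 and 8.46 in HDL NP cells and 8.67, 8.62 and 8.65 in human HDL cells. The log2 difference was −0.18 and did not pass the test (adjusted p = 0.397). The median differences were 0.06 for replication and 0.09 for mitosis members, against 0.03 for all genes. They were −0.052 and 0.005 without HDL NP replicate 1, against −0.01 for all genes, and leaving out each array in turn gave up to 0.161 for replication and 0.174 for mitosis members. Over all alternatives run, the medians went from −0.097 to 0.161 for replication and from 0.005 to 0.212 for mitosis members.

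**Figure D5:**
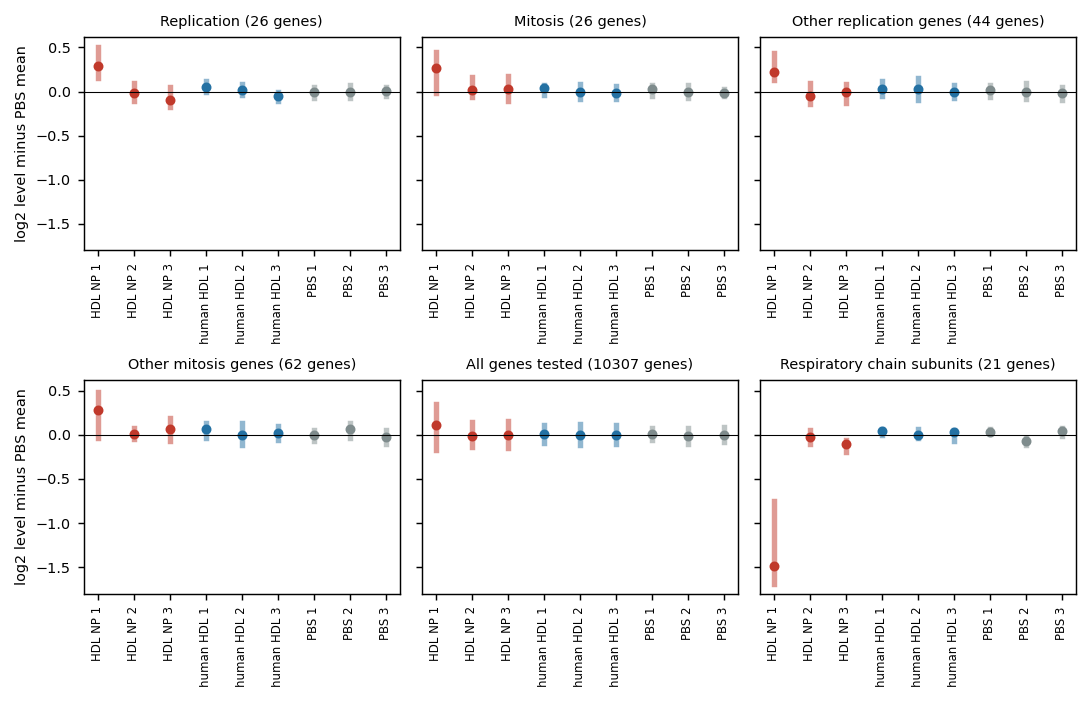
Median (point) and interquartile range (bar) of 6 gene lists on each array, as log2 level minus the PBS mean. On HDL NP replicate 1 the replication and mitosis medians are 0.29 and 0.27 and the respiratory chain median is −1.49, and on the other 8 arrays the replication and mitosis medians lie between −0.09 and 0.05.

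The spread of the members was uneven between groups. Their median SD over 3 arrays was 0.22 in HDL NP cells, 0.09 in human HDL cells and 0.09 in PBS cells, against 0.20, 0.12 and 0.13 over all genes. HDL NP replicate 1 was the highest of the 3 HDL NP arrays for 22 of 26 replication members and 17 of 26 mitosis members. The share over all genes was not counted.

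Further genes of the same processes passed no test either. Of 44 other replication genes measured, 0 passed in either direction against PBS, with 31 above 0 and a median of 0.06, and −0.03 without HDL NP replicate 1. ORC6, a subunit of the origin recognition complex, and POLD4, a small subunit of polymerase delta, had the extremes, at 0.54 and −0.56 (adjusted p = 0.10 and 0.11, and 0.40 and −0.42 without that array). Of 62 other mitosis genes, 0 passed, with 42 above 0 and a median of 0.11, and 0.03 without that array. ASPM, a spindle pole protein, was at 0.52 and CENPW, a kinetochore protein, at −0.49 (adjusted p = 0.24 and 0.52). Leaving that array out put ASPM at 0.33 and turned CENPW to 0.08. Of 20 other G1 regulators and pocket proteins, 0 passed, with a median of 0.04 and a range from CDKN2A (−0.71), a kinase inhibitor gene, to RBL2 (0.27), a pocket protein of DREAM. Without HDL NP replicate 1 the median was −0.02, CDKN2A was at −0.03, RBL2 was at 0.22 and E2F8 was lowest at −0.27. Of 22 growth arrest and DNA damage-response genes, 0 passed, with a median of 0.06, and 0.04 without that array. GADD45A, a damage-response gene, was at 0.40, and ZMAT3 and BAX were at 0.72 and −0.53. These were 0.25, 0.33 and −0.09 without HDL NP replicate 1. At an unadjusted p under 0.05 these 4 lists held 6, 10, 1 and 2 genes, which is 13.6%, 16.1%, 5% and 9.09% of their measured genes, against 15.4% of all genes.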

How the data were processed

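RNA from Ramos cells was labelled and hybridized to Illumina HT-12 arrays by a core facility. For each of 47323 probes on 9 arrays the authors deposited the intensity averaged over beads, not normalized, and its detection p-value. They also deposited a second value table whose unit is unknown (other than intensity, with medians of 2.97 to 3.44), which may be a standard error over beads and served only as an alternative. Probes were named through the platform annotation, and all 85 member probes matched the gene table.

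Intensities were background corrected and quantile normalized with neqc of limma 3.58.1 (R 4.3.3), with negative controls estimated through those p-values and an offset of 16 before log2, which understates changes of dim genes. Probes with detection p under 0.05 on at least 3 arrays were kept (18185), and the brightest stood for its gene (10307 genes). One limma model held the 3 conditions over all 9 arrays, and p-values were adjusted by Benjamini-Hochberg over all genes. The steps were tested on simulated data with equal spread in the 3 conditions and no outlying array. That test therefore does not cover an array such as HDL NP replicate 1. Values on each array are given for the members with the 3 largest differences either way in each class, the G1 regulators, the proliferation markers E2F1, MKI67, PCNA and TOP2A, and a few members chosen after their values were seen (MCM6, CCNB1, PLK1, MAD2L1, KIF20A, CDC25C and CENPA). The members and lists were chosen with earlier results of these data known. The count by fold over 1.5 and unadjusted p was added after the data were seen. Alternatives covered background, scaling, filter, probe, test, array weights, replicate block and leaving out each array.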

Additional observations from a re-analysis of the deposited data

How the results depend on the processing

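The call of CDKN1A was the result most open to the processing. The count of members called was 1 for HDL NP against PBS and 1 against human HDL. It was 0 in both with scaling to equal medians, in the second deposited table and with no filter. A fit of the compared conditions alone and Student's t-test also gave 0 in both. Leaving out each array in turn gave 0 to 1. Of those, the call against PBS was kept without HDL NP replicate 1 or 2 and lost without HDL NP replicate 3 (adjusted p = 0.12), each human HDL array (0.092 to 0.096) or each PBS array (0.11 to 0.23). With the replicate number as a block the count was also 0 in both comparisons (adjusted p = 0.07 and 0.053), and calls over all genes against PBS went to 10 higher and 3 lower, against 38 and 4. Arrays of the same number had correlations of −0.08 to 0.17 in their deviations, with 4 of 9 over 0.1. Arrays of different number and condition ran from −0.14 to 0.09. The main fit did not take the numbers as pairs, and whether arrays of 1 number share a source of variation was not tested. With array weights, whose iteration stopped before it converged, HDL NP replicates 1, 2 and 3 weighed 0.14, 0.58 and 3.87. The weighted HDL NP level thus rested mostly on replicate 3. With these weights 3 members were called against PBS (CDKN1A, CENPE and RFC2) and 4 against human HDL (CDKN1A, CENPE, CENPF and MKI67). Calls over all genes against PBS rose to 533 higher and 330 lower. The cause was not tested. For human HDL against PBS, 0 members were called under every alternative run. The medians of human HDL against PBS were −0.068 for replication and −0.071 for mitosis members with median scaling and −0.114 and 0.069 in the second table. Leaving out each array gave −0.022 to 0.033 for replication and −0.025 to 0.028 for mitosis members. Median scaling moved the median of all genes to 0.09 for HDL NP against PBS, −0.07 for human HDL against PBS and 0.15 for HDL NP against human HDL.

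Signs of small differences between HDL NP and PBS turned as follows. In the second table they were −0.12 for CDC6, 0.11 for TK1, 0.26 for UBE2C, 0.13 for AURKB, −0.027 for MKI67, −0.14 for PCNA and −0.24 for TOP2A, while E2F1 was at 0.00, and that table may not measure expression. CDKN1B was 0.021 with median scaling, 0.036 with the mean of its probes and 0.094 with array weights. PCNA was −0.002 with median scaling and ran from −0.013 (without HDL NP replicate 1) to 0.186 when each array was left out, and PTTG1 ran from −0.516 to 0.004 (without HDL NP replicate 1). E2F2, RRM2, RFC2, CENPE, KIF23, KIF11, CCND3 and CDKN1A kept their sign under the alternatives run. The members chosen after their values were seen are compared here only without HDL NP replicate 1. There MCM6 (−0.05), CCNB1 (−0.03), PLK1 (0.02) and MAD2L1 (−0.11) turned, while KIF20A, CDC25C and CENPA kept their sign. With 3 arrays per condition, the number of arrays limits the precision.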
